A study of Drosophila melanogaster with 12 samples.

Results

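The genes described are 10 components of the Notch signalling pathway of Drosophila melanogaster: the receptor gene N, the ligand genes Dl and Ser, the modifying enzyme genes fng and kuz, the ubiquitin ligase gene neur, the traffic regulator dx, and Su(H), mam and H, whose products act in the nucleus. They were taken as a fixed list of symbols from 13922 protein-coding genes of the RefSeq table on the chromosome arms, and all 10 were found. A peak was counted at a gene when it overlapped the annotated gene or the 2 kb on either side of it. No measured value was used as a rule for choosing the genes, although earlier results of these data were known. Kc167 cells, an embryo-derived Drosophila line labelled as female, had been nucleofected without RNA (mock) or with 12 µg of dsRNA that targets CP190 (dsCP190) and grown for 6 days. Chromatin was then precipitated with 5 µg of rabbit antibody against CP190 or against CLAMP, with 2 replicates in each of the 4 groups. The mock cells received no other RNA, so an effect of the CP190 sequence and of double-stranded RNA as such cannot be told apart. The level of CP190 in the cells was not measured in the files used, and peak lists hold no expression with which to check the cell line.

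Notch is a receptor that is cut on contact with a ligand on a neighbouring cell, after which its intracellular domain enters the nucleus, joins the DNA-binding protein Su(H) and the coactivator Mastermind, and switches on target genes such as those of the E(spl) complex. Delta and Serrate are the ligands. Fringe adds sugars to the receptor and shifts its response between the ligands, Kuzbanian is the metalloprotease that cuts the receptor outside the membrane, Neuralized drives uptake of the ligands, Deltex steers receptor traffic, and Hairless holds Su(H) in a repressing complex. CP190 is a component of chromatin insulators that sits at many promoters and domain borders, and CLAMP recognises GA repeats through its zinc fingers.

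Genome-wide, mock replicates 1 and 2 yielded 7669 and 7964 CP190 peaks, and dsCP190 replicates 1 and 2 yielded 2047 and 3138. For CLAMP the mock lists were 4471 and 4514 peaks long and the dsCP190 lists 2468 and 901, so dsCP190 replicate 2 of CLAMP stood apart from replicate 1. Relative depth was read from the local background at shared summits. The CP190 dsCP190 libraries had between 0.530 and 0.924 of the depth of a mock library, and the CLAMP dsCP190 libraries between 0.360 and 0.449. The chromatin came from whole cultures, so a site bound in fewer cells and a site bound less in each cell cannot be told apart. Nothing in the labels tells if the replicates were separate cultures. P-values between libraries therefore rest on the spread among these samples alone, and that spread may be technical.

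CP190 was called at 7 of the 10 genes in both mock libraries: N, kuz, neur, dx, Su(H), mam and H. It was called in no library at Dl, Ser or fng, which encode the ligands and the enzyme that tunes the response to them. CLAMP was also called at 7 genes in both mock libraries, namely N, Dl, fng, kuz, neur, dx and mam, but not at Ser or H, and at Su(H) in mock replicate 1 only. Ser was the gene without a peak of either protein in any of the 8 libraries. In both dsCP190 libraries CP190 was still called at N, kuz, dx and mam, and CLAMP at N, dx and mam.

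**Figure D1:**
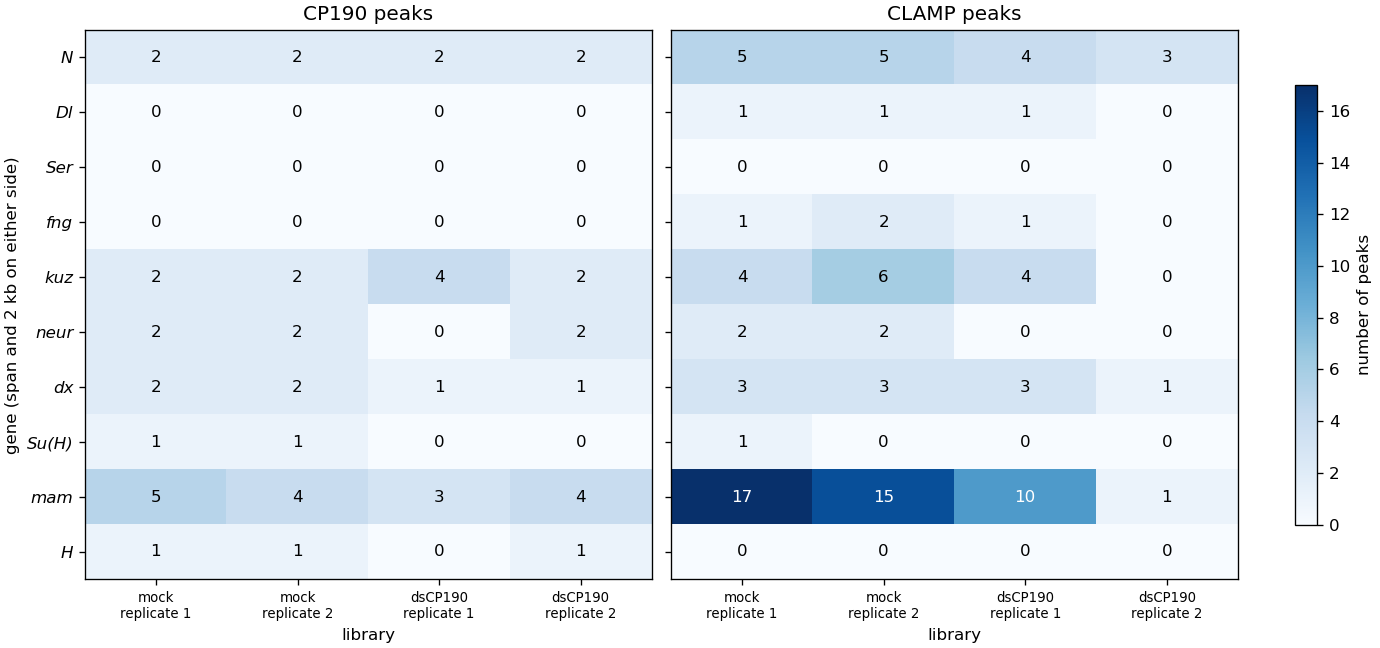
Number of CP190 peaks (left) and CLAMP peaks (right) at each of the 10 Notch pathway genes (rows, gene and 2 kb on either side) in each library (columns), with the number printed in each cell and shaded from 0 to 17. The mam row holds the highest CLAMP counts in the mock libraries, 17 and 15, and the Ser row is 0 throughout.

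Against all protein-coding genes, 7 of 10 with CP190 in mock cells stood near the background of 68%. The gene's length bears on that share, since a long gene collects more peaks. Of the 7 members spanning at least 10 kb, 4 had CP190 in both mock libraries, beside 82.1% of all such genes, and the 3 shorter ones (dx, Su(H) and H) all had it, beside 65.7%. In dsCP190 cells CP190 was called at 4 of the 10 genes, 3 of them long and 1 short, where the background was 22.1% of all genes, 39.6% of long ones and 19.2% of short ones. For CLAMP in mock cells the count of 7, made up of 6 long genes and 1 short gene, stood beside 26% of all genes, 54.3% of long ones and 21.3% of short ones. CLAMP was called in both dsCP190 libraries at 3 of the 10 genes, 2 long and 1 short, beside 7.05% of all genes, 21.8% of long ones and 4.62% of short ones. Without CLAMP dsCP190 replicate 2 that count was 6, but it then asks for a call in only 1 library. The background shares ask for a call in both, so they are not its background.

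Peaks of the 4 libraries of an antibody that overlapped were joined into regions, and those with a call in mock replicates 1 and 2 are referred to as reproducible. Such a region is described as lost when neither dsCP190 library had a call in it, as kept when both had one, and as partial when 1 did. The fold enrichments below are the values of the authors' peak caller at a summit, each within its own list. Differences in them between libraries were not tested. Where dsCP190 values are said to lie below mock values, the share of all regions for which this held is not given here. The number of DNA fragments at a summit was recovered from the fold enrichment and the p-value of each peak. Positions are on dm6, and the summit position of a region is the mean over the libraries with a call in it. The gene table carries no strand or exons, so a region is placed by distance from the low-coordinate or high-coordinate end of a gene, and exon, intron and UTR were not separated.

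The receptor gene N, on chromosome X from 3134870 to 3172221, carried CP190 at 2 regions, and both were called in all 4 libraries. The stronger, X from 3134005 to 3135457, lies over the low-coordinate end of N and also overlaps the neighbouring gene kirre, which encodes a cell adhesion protein. Its fold enrichment was 27.8 and 27.5 in mock replicates 1 and 2, and 15.9 and 43.8 in dsCP190 replicates 1 and 2. The summit held 460 and 500 fragments in the mock libraries and 215 and 358 in the dsCP190 libraries. Replicate 2 of dsCP190 had the highest fold and replicate 1 the lowest, so the mock values lay between them. Within its list the region ranked 506 and 307 in the mock libraries and 40 and 3 in the much shorter dsCP190 lists. The second CP190 region, X from 3172594 to 3173798, has its summit 1031 bp past the high-coordinate end and overlaps Fcp3C and CG18508. Its fold was 20.4 and 22.0 in mock cells, with 3.24 and 5.24 in dsCP190 cells, and its fragments were 219 and 281 against 28 and 48. The groups do not overlap there, and the region was called all the same in both dsCP190 libraries.

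N also carried 5 reproducible CLAMP regions. The strongest, X from 3161701 to 3163390, lies inside the gene, 27.4 kb from its low-coordinate end, with no CP190 peak over it. Its CLAMP fold was 18.3 and 18.8 in mock cells, with 16.5 and 5.61 in dsCP190 cells. The next, X from 3143035 to 3143862, had 11.2 and 7.75 in mock cells, with 7.60 and 2.87 in dsCP190 cells. Both were kept, with the lowest value in dsCP190 replicate 2. Another, X from 3134583 to 3135998, overlaps the CP190 region at the low-coordinate end with summits 480 bp apart, and was called in both mock libraries and dsCP190 replicate 1. Of the other CLAMP regions of N, 1 was partial and 1, X from 3140714 to 3141113, was lost.

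The ligand gene Dl, on 3R from 19302731 to 19326217, had CLAMP at 1 place and no CP190. The region, 3R from 19321727 to 19322378, lies inside the gene 4131 bp from its high-coordinate end. Its CLAMP fold was 5.65 and 6.81 in mock cells and 3.81 in dsCP190 replicate 1, from 81, 80 and 19 fragments, and it was not called in dsCP190 replicate 2. Ser, the gene of the other ligand, on 3R from 27172090 to 27194267, had no peak. At fng, on 3L from 20925891 to 20949512, the reproducible CLAMP region was 3L from 20949395 to 20950312, over the high-coordinate end. It was among the weaker ones, with a fold of 2.53 and 2.73 in mock cells and 3.18 in dsCP190 replicate 1, and no call in dsCP190 replicate 2.

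The protease gene kuz spans 89.3 kb, on 2L from 13550139 to 13639411, and is the longest of the 10. Its CP190 region at the low-coordinate end, 2L from 13548955 to 13550512, is shared with the neighbouring gene B4. The CP190 fold there was 18.5 and 13.3 in mock cells, with 4.17 and 7.08 in dsCP190 cells, and the groups do not overlap. A region beyond the other end, 2L from 13640406 to 13642624, was lost. It overlaps the gene ics, and its mock summit lies 2594 bp past the high-coordinate end of kuz, outside the 2 kb, so that its left part alone reaches the window. Its CP190 fold was 14.5 and 14.6 in the mock libraries, from 149 and 207 fragments.

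CLAMP had 4 reproducible regions at kuz, each of them called in dsCP190 replicate 1 and not in replicate 2. The strongest, 2L from 13549958 to 13550971, overlaps the CP190 region at the low-coordinate end and had a CLAMP fold of 7.19 and 5.87 in mock cells and 7.25 in dsCP190 replicate 1. The region 2L from 13640379 to 13641149, which overlaps the lost CP190 region with summits 1381 bp apart, had 6.33 and 6.35 in mock cells and 7.35 in dsCP190 replicate 1. At this place CLAMP was called in 1 dsCP190 library and CP190 in neither.

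A CP190 region was gained inside kuz: each dsCP190 library had a call there and no mock library did. It spans 2L from 13572429 to 13572826, 22.4 kb from the low-coordinate end, with a fold of 3.30 and 3.64 in dsCP190 replicates 1 and 2 from 39 and 36 fragments. A CLAMP region of 2L from 13572444 to 13572882 covers nearly the same place, with summits 119 bp apart and a fold of 2.87 and 3.18 in the mock libraries.

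The ubiquitin ligase gene neur, on 3R from 9020348 to 9039471, had CP190 at each end. The region at the low-coordinate end, 3R from 9019565 to 9020425, is shared with tgo, which encodes a bHLH-PAS transcription factor. Its CP190 fold was 14.4 and 11.8 in mock cells and 6.34 in dsCP190 replicate 2. The region at the high-coordinate end, 3R from 9038728 to 9040109, is shared with hyx, which encodes a subunit of the Paf1 transcription elongation complex. Its CP190 fold was 11.1 and 9.83 in mock cells and 2.34 in dsCP190 replicate 2. Neither was called in dsCP190 replicate 1. The 2 CLAMP regions of neur, 3R from 9033623 to 9034342 inside the gene and 3R from 9039421 to 9040036 at the high-coordinate end, were both lost. They were weak in mock cells, with a CLAMP fold of 2.99 and 2.94 in the first and 2.22 and 2.79 in the second.

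The gene dx, on X from 6533999 to 6538575, was bound by both proteins near its low-coordinate end in all libraries. The CP190 region there, X from 6532822 to 6534553, also overlaps RpL7A, a ribosomal protein gene, and has its summit 607 bp outside dx. Its fold was 34.9 and 28.3 in mock cells, with 11.3 and 15.2 in dsCP190 cells, from 357, 393, 112 and 157 fragments, so every dsCP190 value lay below every mock value. It was the CP190 region with the highest mock fold among the 10 genes. The CLAMP region X from 6533785 to 6534908 had its summit 277 bp from the same end, 884 bp from the CP190 summit, and a fold of 14.1 and 23.3 in mock cells, with 16.2 and 8.83 in dsCP190 cells. These groups overlap: dsCP190 replicate 1 lay between the mock values. A weaker partial CLAMP region, X from 6532892 to 6533563, has its mean summit 2 bp from the mean CP190 summit. In mock replicates 1 and 2 alone the summits were at 6533372 and 6533371 for CLAMP and at 6533392 and 6533418 for CP190. Past the other end of dx, at CG34417, the CP190 region X from 6540150 to 6540947 was lost, with a mock fold of 6.12 and 5.56. The CLAMP region over it, X from 6539392 to 6541038, was partial, with 7.87 and 8.57 in mock cells and 5.08 in dsCP190 replicate 1.

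Among the nuclear components, Su(H), on 2L from 15039488 to 15043334, is the gene whose single CP190 region was lost. The region, 2L from 15038602 to 15039866, lies over the low-coordinate end with its summit 46 bp from it, and is shared with CIAPIN1, a gene of iron-sulfur cluster assembly. Its CP190 fold was 9.39 and 9.49 in mock cells, from 121 and 172 fragments. A CLAMP peak at the same end, 2L from 15039462 to 15039903, was called in mock replicate 1 alone, with a fold of 2.74. H, on 3R from 20621938 to 20628915, had its single CP190 region at 3R from 20621521 to 20622804, with the summit 20 bp from its low-coordinate end. The CP190 fold was 13.2 and 10.9 in mock cells and 3.37 in dsCP190 replicate 2, and there was no call in dsCP190 replicate 1.

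The coactivator gene mam spans 69.2 kb, on 2R from 13991203 to 14060356, and carried more CLAMP regions than any other of the 10 genes. It had 11 reproducible ones, of which 1 was kept, 8 were partial and 2 were lost. Of all 13922 protein-coding genes, 18 (0.129%) held as many or more, and all 18 were among the 1976 genes of at least 10 kb, of which they were 0.911%. The median gene of that length held 1 CLAMP region. Per 10 kb of gene and flanks mam held 1.5 CLAMP regions, fewer than the 3.5 of dx and more than the 1.21 of N. The density over all genes is not given here, and the genes of at least 10 kb are not matched to mam in length. With all CLAMP lists cut to equal length mam held 2 reproducible regions, N and dx 1 each and kuz 0. For comparison, 121 of the 1976 long genes (6.12%) held at least the 5 CLAMP regions of N, and 177 (8.96%) at least the 4 of kuz. The 4 reproducible CP190 regions of mam were matched or passed by 237 long genes (12.0%), with a median of 2.

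The strongest CLAMP region of mam, 2R from 14008179 to 14010680, was the only one there called in dsCP190 replicate 2. It lies inside the gene, 17.3 kb from the low-coordinate end, with a CLAMP fold of 9.32 and 9.71 in mock cells, with 9.29 and 3.53 in dsCP190 cells. The fragments at its summit were 278 and 240 in mock cells, with 107 and 43 in dsCP190 cells. The next, 2R from 14006598 to 14007419, had a CLAMP fold of 8.56 and 8.05 in mock cells and 10.2 in dsCP190 replicate 1. In dsCP190 replicate 1 mam had 10 CLAMP peaks, and in replicate 2 it had 1.

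CP190 at mam was kept at 2 regions, lost at 2 and gained at 1. The region at the low-coordinate end, 2R from 13990283 to 13991474, is shared with RN-tre, which encodes a Rab GTPase-activating protein, and had a CP190 fold of 13.5 and 12.2 in mock cells, with 2.96 and 2.97 in dsCP190 cells. The lost region 2R from 14043875 to 14044713, inside the gene, had 9.38 and 10.3 in mock cells, and the other lost region, 2R from 14046090 to 14046639, had 7.02 and 4.42. The kept region 2R from 14006716 to 14007308, inside the gene and 15.7 kb from the low-coordinate end, held weaker mock peaks. Its CP190 fold was 4.54 and 3.39 in mock cells, with 4.69 and 4.24 in dsCP190 cells, so the groups overlap. Its rank was 5889 and 6908 in the mock lists and 784 and 1819 in the shorter dsCP190 lists. It lies in the weakest quintile of mock strength, where 14 of 1472 CP190 regions (0.951%) were kept. Its summit is 59 bp from that of the CLAMP region with a fold of 10.2 in dsCP190 replicate 1.

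The CP190 region gained in mam, 2R from 14008229 to 14008975, has its summit 14 bp from that of the kept CLAMP region. Its CP190 fold was 2.62 and 3.20 in the dsCP190 libraries, from 45 and 43 fragments. Gained CP190 regions were rare, at 24 of 8363 regions (0.287%) in all, and 2 of the 24 lay in these genes, in kuz and mam. Both overlap a CLAMP region called in both mock libraries. The same held for 23 of the 24 gained regions (95.8%), whereas 1515 of the 7356 reproducible CP190 regions (20.6%) overlap such a CLAMP region. The lists do not give fragments for the mock libraries at places without a peak, so the mock level at the gained regions was not measured.

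**Figure D2:**
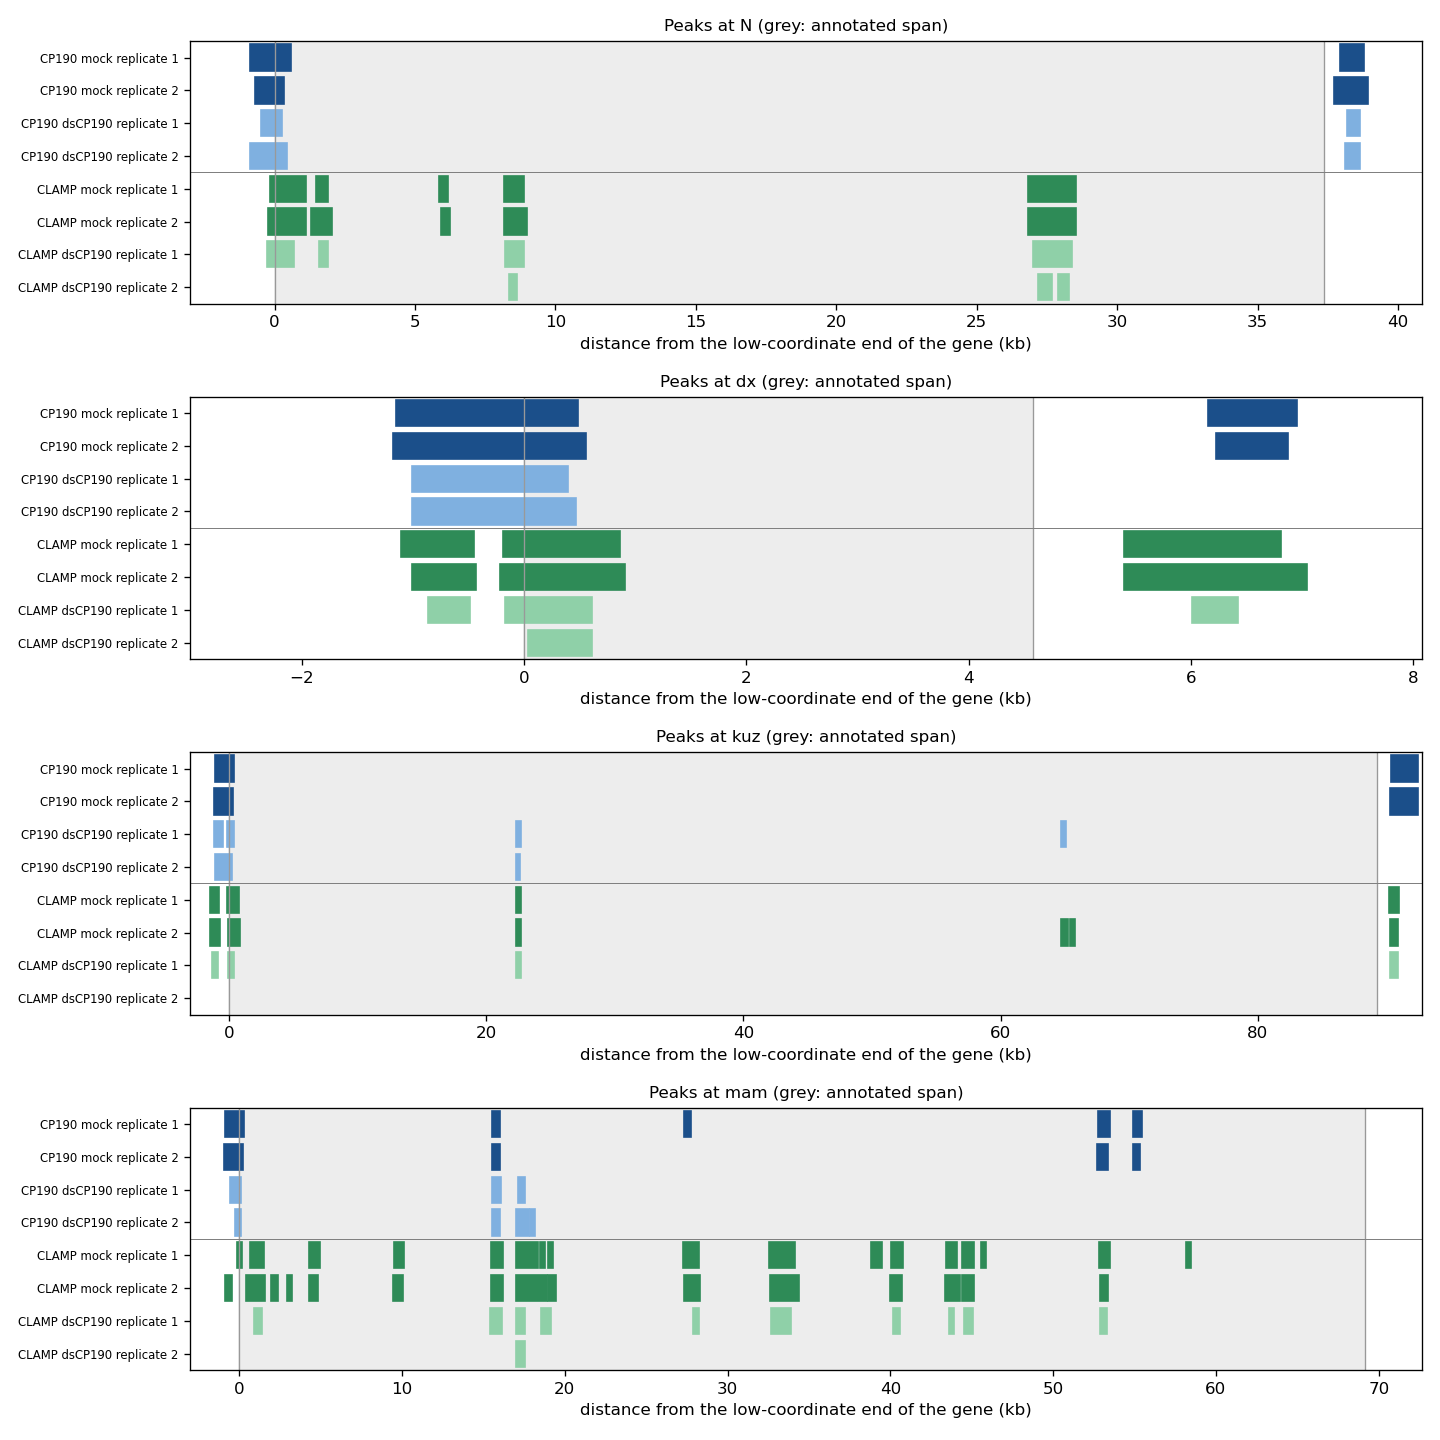
Positions of CP190 peaks and CLAMP peaks (rows, 1 per library) along N, dx, kuz and mam, in kb from the low-coordinate end of each gene, with the gene shaded. In mam the CLAMP peaks run through the gene in both mock libraries and in dsCP190 replicate 1, while dsCP190 replicate 2 has 1, at 17.3 kb.

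Over the 10 genes there were 14 reproducible CP190 regions, of which 5 were lost (35.7%, 95% Wilson interval 16.3 to 61.2), 6 were kept (42.9%, 21.4 to 67.4) and 3 were partial. Genome-wide, 58.4% of the 7356 reproducible CP190 regions were lost and 22.6% kept. Both background shares lie within the intervals, which cover counting error only. Without CP190 dsCP190 replicate 2, where absence from replicate 1 is enough for a region to count as lost, the lost count was 8. The 5 lost regions belonged to kuz, dx, Su(H) and mam, and the 3 partial ones to neur and H, each called in dsCP190 replicate 2 and not in replicate 1.

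CLAMP had 27 reproducible regions at the 10 genes, of which 5 were lost (18.5%, 95% Wilson interval 8.18 to 36.7), 4 were kept (14.8%, 5.92 to 32.5) and 18 were partial. Genome-wide, 40% of the 3654 reproducible CLAMP regions were lost and 21.9% kept. The share lost genome-wide lies above the interval at these genes, and the share kept lies within its interval. The intervals cover counting error only and take the regions as independent, though 11 of the 27 lie in mam and 5 in N. All 18 partial regions were called in dsCP190 replicate 1 and not in replicate 2. The counts therefore rest on single libraries: 24 regions would be lost without dsCP190 replicate 1 and 22 kept without dsCP190 replicate 2, and the lost count was 11 without mock replicate 1 and 10 without mock replicate 2. Each of these settings also needs fewer calls for a region to qualify.

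All reproducible regions were split into 5 quintiles by mock rank, since over the genome stronger regions were called more often after dsCP190. In the strongest CP190 quintile, 73.4% of all regions were kept, and the 3 regions at N and dx were among them. In the next quintile, where 31.8% of all regions were kept and 28.4% lost, the 6 regions of these genes were 2 kept, 1 lost and 3 partial. The middle quintile held 2 regions of these genes and the one below it another 2, and all 4 were lost, beside 66.9% and 91.4% of all regions. The weakest quintile held 1, the region inside mam described above, and it was kept where 95.6% of all regions were lost. For CLAMP, the strongest quintile held 3 regions of these genes, all kept, beside 80.4% of all. The next held 11, of which 1 was kept and 10 were partial, where 25.4% of all regions were kept and 7.8% lost. The middle quintile held 3, all partial, beside 37.5% of all lost. The 5 lost CLAMP regions lay in the weakest 2 quintiles: 3 were lost and 2 partial in the weakest, and 2 lost and 3 partial in the next, where 85.9% and 68.5% of all regions were lost.

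**Figure D3:**
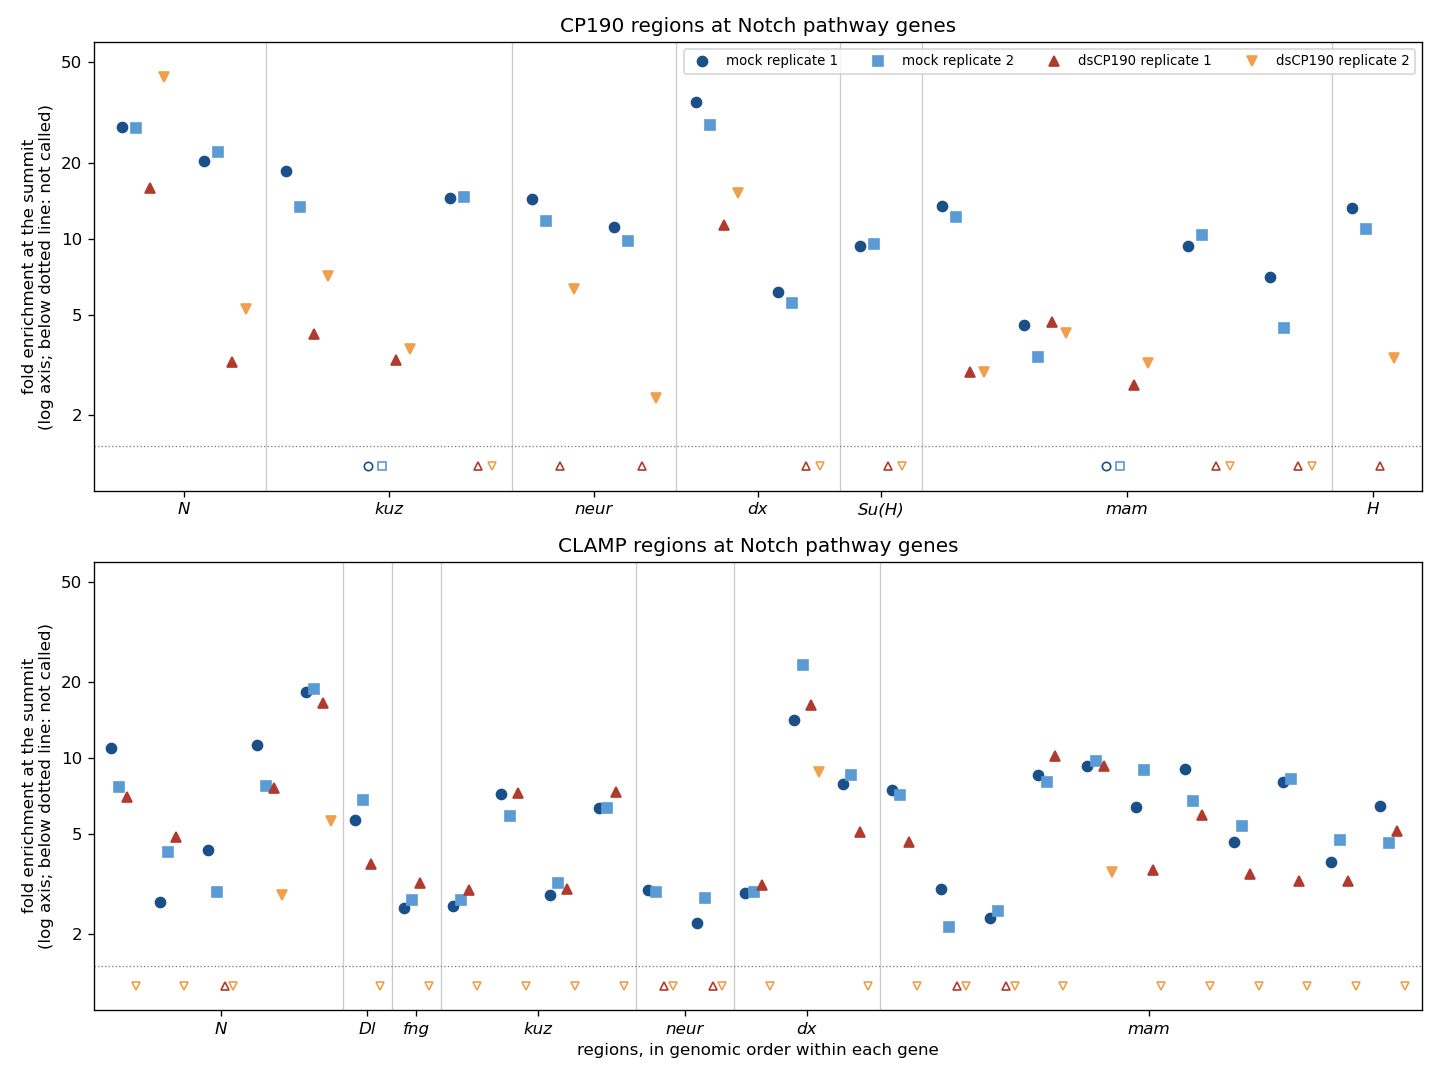
Fold enrichment at the summit (log axis) of each reproducible or gained region at the Notch pathway genes in each of the 4 libraries of CP190 (top) and CLAMP (bottom), in genomic order within each gene, with open symbols below the dotted line for libraries without a call. Filled CP190 symbols of the dsCP190 libraries lie below the mock symbols at most regions, with exceptions at the low-coordinate end of N and inside mam. The share of all CP190 regions with this order is not given here.

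Peak numbers at the 10 genes were compared between libraries. CP190 had 15 and 14 peaks in mock replicates 1 and 2 and 10 and 12 in dsCP190 replicates 1 and 2. The means were 14.5 ± 0.707 (SD, n = 2) and 11 ± 1.41 (SD, n = 2), a ratio of 0.759, beside 0.332 for the whole lists. By a two-sided exact permutation test p was 0.33, which is as low as 2 libraries against 2 can go. CLAMP had 34 peaks in each mock library, 23 in dsCP190 replicate 1 and 5 in replicate 2, so the dsCP190 libraries differed from each other by more than replicate 1 differed from the mock libraries. The means were 34.0 ± 0 (SD, n = 2) and 14.0 ± 12.7 (SD, n = 2), a ratio of 0.412 beside 0.375 for the whole lists, with an exact two-sided permutation p = 0.33. Without CLAMP dsCP190 replicate 1 the ratio was 0.147 and without replicate 2 it was 0.676.

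A shallower library needs a higher fold for a call. For each region and dsCP190 library, the fold needed was computed from the mock local background, scaled by relative depth, and the lowest −log10 p in that list. Every CP190 region of these genes that was not called would have met that level at its mock fold. This held for 8 of 8 regions in dsCP190 replicate 1, where the mock fold was 2.20 to 6.46 times the fold needed, and for 5 of 5 in replicate 2, at 2.23 to 6.30 times. Over the genome it held for 99.6% and 99.5% of the CP190 regions not called. At Su(H) the ratio was 4.51 and 4.36 in dsCP190 replicates 1 and 2. For CLAMP the margin was narrower. In dsCP190 replicate 1 the 5 regions not called had ratios of 0.936 to 1.28, and 4 of them were above 1. In replicate 2, 20 of 23 were above 1, with ratios of 0.862 to 3.27 and a median of 1.88. The genome-wide shares for CLAMP were 77.3% in replicate 1 and 74.1% in replicate 2. Of the lost CLAMP regions of neur, the one inside the gene had ratios of 1.28 and 1.12, and the one at the high-coordinate end had 0.936 and 0.862, below the level for a call in both dsCP190 libraries.

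**Figure D4:**
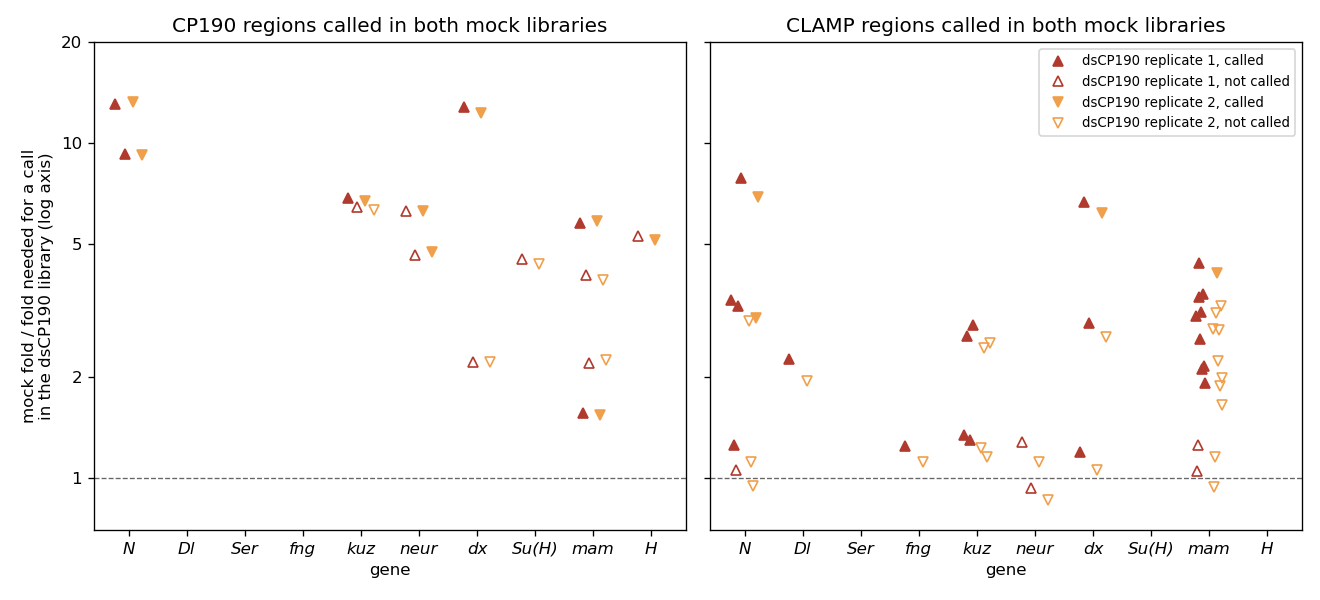
Mock fold enrichment divided by the fold needed for a call in each dsCP190 library (log axis), for every reproducible region of the 10 genes, CP190 left and CLAMP right, with filled symbols for regions called in that library and open symbols for those not called. Open CP190 symbols lie at 2.20 or above, whereas the open CLAMP symbols of dsCP190 replicate 1 lie between 0.936 and 1.28, around the dashed line at 1.

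The position along each gene was taken from the mean summit over the libraries with a call, mock and dsCP190 alike. Of the 14 CP190 regions, 7 had their summit within 500 bp of an end of the gene itself, 3 lay inside it and 4 beside it. Those beside the gene include the lost region past kuz, whose summit is 2594 bp out, beyond the 2 kb. The 7 include the region at the low-coordinate end of kuz, with its mean summit 446 bp away. Both mock summits there lie more than 500 bp away. Of the 27 CLAMP regions, 5 were at an end, 18 inside and 4 beside the gene. Counting the ends of any protein-coding gene, 10 CP190 regions (71.4%) and 7 CLAMP regions (25.9%) lay within 500 bp of one, beside 62.1% and 34.3% of all reproducible regions. Of the 14 CP190 regions, 10 also overlap another gene or have its end near the summit, and 5 of the 27 CLAMP regions do. The same share over all regions is not given here, so these counts are not a trait of these genes.

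In mock cells 10 of 28 CLAMP regions at these genes (35.7%) overlapped a CP190 region called in both mock libraries, where the background over all CLAMP regions was 42.3%. Regions were joined within a treatment for this count, which gives 28 in place of 27. In dsCP190 cells 2 of 4 (50.0%) overlapped one, beside 20% of all. Without CLAMP dsCP190 replicate 2 this was 8 of 23 regions, for which the 20% is not the background, since it asks for CLAMP in both libraries. The overlapping pairs after dsCP190 lay at dx and in mam. Of the 8 reproducible CP190 regions with a reproducible CLAMP region over them, 4 were kept, 3 lost and 1 partial. Of the 6 without one, 2 were each kept, lost and partial. Over all reproducible CP190 regions 22.6% were kept and 58.4% lost, and a split of these shares by CLAMP overlap is not given here. A link between CLAMP overlap and the keeping of CP190 was not tested.

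Other genes of the pathway, 34 of 35 listed after 1 synonym was merged, had CP190 in both mock libraries at 18 and CLAMP at 11, beside 68% and 26% of all protein-coding genes. CP190 was kept in at least 1 region at 8 of the 34, where 22.1% of all protein-coding genes had CP190 in both dsCP190 libraries. The groups below are small, and their counts are to be read against these shares. Every gene for receptor processing and glycosylation but 1 carried CP190, 7 of 8, and none of the 8 carried CLAMP. The 7 were Tace and rumi (kept), Psn, Nct and O-fut1 (partial), and aph-1 and pen-2 (lost). Psn, Nct, aph-1 and pen-2 encode the gamma-secretase subunits that cut the receptor in the membrane. All 6 genes for ligand and receptor traffic carried CP190 and 4 carried CLAMP. CP190 was kept at Su(dx) and Nedd4, which encode ubiquitin ligases, partial at mib1, lqf and spdo, and lost at numb, whose product limits Notch signalling. Of 5 nuclear cofactor genes, 4 had CP190 and 3 had CLAMP, with CP190 kept at gro, CtBP and nej and lost at Bx42. Of 11 E(spl) complex genes, 1 had CP190, E(spl)m8-HLH, through a region it shares with gro. CLAMP was at 4 of the 11. E(spl)m3-HLH and E(spl)m4-BFM share 1 region, E(spl)m8-HLH shares its region with gro, and E(spl)mbeta-HLH had 2, 1 kept and 1 lost. None of the 4 Bearded complex genes Brd, BobA, Tom and Ocho had either protein.

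The highest mock ranks among these genes for CP190 were at nej, Su(dx) and Nedd4, and for CLAMP at nej, Nedd4 and CtBP. At Su(dx) the CP190 fold was 20.5 and 25.1 in mock cells, with 9.31 and 15.8 in dsCP190 cells. At Nedd4 the CP190 fold was 17.4 and 20.5 in mock cells, with 5.63 and 8.71 in dsCP190 cells. In both genes the dsCP190 values lay below the mock values, as they did for CP190 at nej, with 42.8 and 22.2 in mock cells, with 12.5 and 14.9 in dsCP190 cells. The CLAMP fold at Nedd4 was 20.5 and 18.9 in mock cells, with 29.6 and 12.8 in dsCP190 cells, so the groups overlap. At CtBP, a corepressor gene, the CLAMP fold was 11.4 and 16.2 in mock cells, with 11.3 and 7.16 in dsCP190 cells. At nej it was 21.0 and 23.6 in mock cells, with 21.4 and 8.23 in dsCP190 cells.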

How the data were processed

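ChIP-seq peak lists of 8 immunoprecipitations were used, 1 per sample, and the 4 inputs were not used here. The submitters' processing notes name dm6 as the build and, with no roles, MACS2 2.1.1.20160309, Bowtie2 2.3.4.1, cutadapt 1.16, deepTools 3.0.2 and Picard 2.18.9. Which control library and calling parameters were used is not given in the sources used here. The deposited columns are the authors' −log10 q, −log10 p, fold enrichment and score, values of each peak in its own list. The lowest −log10 q of a list lay between 1.30 and 2.01. Per the labels, all groups concern CP190 knockdown, and the design text of the series, which names CLAMP knockdown, was not followed.

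Peaks on the 6 main arms that overlapped by at least 1 bp were joined into regions per antibody. Whole fragment numbers and the local background were solved from each fold enrichment and −log10 p within 0.001, with 1 of 7669 peaks unsolved in CP190 mock replicate 1 and none in the other lists. Relative depth is the median ratio of local backgrounds at summits within 100 bp. Read totals were not used here. Libraries were compared in peak number by exact permutation, two-sided. Python 3.11.15, numpy 2.4.6, pandas 2.3.3, scipy 1.17.1 and matplotlib 3.10.9 were used, and the steps were tested on simulated data.

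Genes came from a RefSeq table of the same build without strand or exons. Dl is listed there as Delta and was matched by its locus. Per gene and antibody, the 2 regions with the highest mock rank and every gained region were given in each library, and up to 3 other pathway genes per antibody were named by mock rank. Regions beyond these, and other pathway genes in counts, were named after their values were seen. The genes, lists and tests were chosen with earlier results of these data known. The planned count of promoter motifs was not run, since no promoter sequence was used here. Replicate numbers are shared across groups but were not found to pair libraries: the deviations of same-numbered libraries correlated at r = −0.098 over 1661 CP190 regions and 0.012 over 801 CLAMP regions, across regions, which are not independent. Alternatives tried were stricter q values, lists of equal length, other windows, other overlap rules, and leaving out each library.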

Additional observations from a re-analysis of the deposited data

How the results depend on the processing

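Results are limited by 2 libraries per group, by p = 0.33 as the smallest exact value, by lists whose lowest q values differ, and for CLAMP by shallow dsCP190 libraries, 1 of which had few peaks. Of the values that answer a comparison, 90 kept their direction or, for counts, stayed close under the alternatives, 20 moved and 2 reversed. With a −log10 q of at least 10, 8 CP190 and 10 CLAMP regions were lost, 2 CLAMP regions were kept, and 1 CLAMP region overlapped CP190 in dsCP190 cells. With lists cut to equal length, which keeps the strongest mock peaks only, the dsCP190 to mock ratio of peak numbers reversed to 1.42 for CP190 (exact permutation p = 0.33) and 1.2 for CLAMP (exact permutation p = 0.667), 0 CP190 and 1 CLAMP regions were lost, and 4 and 3 genes had CP190 and CLAMP in mock cells. Counting gene bodies alone, 3 CP190 regions were lost. With an overlap of 50% of each region, or with summits within 100 bp, 3 CLAMP regions overlapped CP190 in mock cells and 1 in dsCP190 cells. Leaving out each library gave CP190 ratios of 0.69 to 0.828 and CLAMP ratios of 0.147 to 0.676. CP190 regions lost ranged from 5 to 8 and kept from 6 to 9, and CLAMP regions lost from 5 to 24 and kept from 4 to 22. Genes with CP190 numbered 7 in mock cells throughout and 4 to 6 in dsCP190 cells, and genes with CLAMP 7 to 8 and 3 to 6. CLAMP regions overlapping CP190 ranged from 10 to 12 in mock cells and from 2 to 8 in dsCP190 cells. With the replicate number as a block, the ratios were 0.756 for CP190 and 0.315 for CLAMP, with an exact sign-flip p = 0.5 for each, the smallest that 2 pairs allow. The block changed no call. The causes of these shifts were not tested.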

Other observations

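Several regions at these genes were called in 1 library only. They enter the peak numbers per library but not the counts of lost, kept or gained regions. In mam, 7 CLAMP regions were each called in a single mock library. In kuz, CP190 was called at 2L from 13614870 to 13615223 in dsCP190 replicate 1 alone, with a fold of 2.32. CLAMP was called at nearly the same place, 2L from 13614834 to 13615371, in mock replicate 2 alone, with a fold of 2.94 and its summit 70 bp away. In mam, CP190 was called at 2R from 14009045 to 14009361 in dsCP190 replicate 2 alone, with a fold of 2.34, inside the CLAMP region kept in that gene. In fng, CLAMP was called at 3L from 20931065 to 20931374 in mock replicate 2 alone, with a fold of 2.73.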
